A study of Bos taurus with 57 samples.

Results

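The 50 genes described here are the most abundant pituitary-enriched genes of young Holstein-Friesian bull calves, out of 24616 genes counted. They were picked on the high plane libraries. A gene's level was its CPM, the reads on the gene per 1000000 reads counted in that library. Genes qualified when their mean CPM plus 0.5 in the anterior pituitary was at least 8 times that in both the arcuate nucleus and the testes, which left 117 genes, and the 50 with the highest pituitary mean were kept. Each gene is called here by its rank in that order, so that rank 1 is the most abundant.

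The calves were male and were killed at 126 days of age, after rearing on feed that allowed fast (high plane) or slow (low plane) growth. Fast growth is 1.08 kg per day in the labels and 1.2 in the design text, and slow growth is 0.5 kg per day in both. High plane calves gave 9 anterior pituitary, 10 arcuate nucleus and 10 testes libraries, and low plane calves gave 10, 10 and 8. By the study's methods each library of a tissue came from a separate calf. The labels do not say which libraries of the 3 tissues came from the same calf, and they name no other treatment.

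The anterior pituitary is an endocrine gland whose cell types each make 1 or a few hormones in bulk, among them growth hormone, prolactin, the pro-opiomelanocortin peptides, thyrotropin and the gonadotropins LH and FSH. Hypothalamic signals, some of them from the arcuate nucleus, set the release of these hormones, and the gonadotropins act on the testes. Cells of this kind are known for devoting much of their mRNA to a few secreted products. The files list genes by Ensembl identifier alone and nothing used here pairs those identifiers with names, so none of the 50 genes is named, no role is given for any of them, and the tissue labels could not be checked against marker genes. Gene lengths were not used here either, so CPM ranks reads on a gene and not transcripts.

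Total counts ran from 6895844 to 27426173 in the pituitary, from 898979 to 32009433 in the arcuate nucleus and from 8586953 to 26067610 in the testes. In each tissue some libraries stood apart, with a median rank correlation to the rest of their tissue under 0.9. These were 5 of 19 pituitary libraries (A57, A51 and A18 on the high plane, A10 and A47 on the low plane), 2 of 20 arcuate libraries (both low plane) and 6 of 18 testes libraries (1 high plane, 5 low plane). Their correlations in the pituitary were 0.667 to 0.755, against 0.97 to 0.981 for the other 14. The pituitary results are therefore given with and without the 5 libraries. In the arcuate nucleus the 2 libraries had 0.65 and 0.786, against 0.948 to 0.979 for the other 18. In the testes the 6 had 0.744 to 0.897, against 0.968 to 0.979 for the other 12. Low plane testes libraries B20 (0.897) and B26 (0.878) lay nearest to the limit, so the split of the testes libraries depends on it.

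The last gene inside the list, rank 50, had a mean of 41.58 CPM, and the first outside it 41.27 CPM. By ratio, the member nearest to the threshold was rank 25, at 8.07 times the next highest tissue, followed by rank 38 at 8.19. Just outside lay a gene at 7.59 times, with a pituitary mean of 163.2 CPM. The list was thus cut through a continuous range of both level and ratio.

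The most abundant member, rank 1 (ENSBTAG00000015274), had 199804 ± 54975 CPM (SD, n = 9) in the high plane pituitary. Rank 2 (ENSBTAG00000017220) followed with 71373 ± 52402 CPM, and rank 3 (ENSBTAG00000016138) with 10934 ± 7151 CPM. Levels fell off steeply after these. Rank 4 (ENSBTAG00000007897) had 6073 ± 9209 CPM and rank 5 (ENSBTAG00000003212) 5269 ± 2071 CPM. Rank 6 (ENSBTAG00000046476) had 2373 ± 512 CPM, rank 7 (ENSBTAG00000043553) 1886 ± 682 CPM and rank 8 (ENSBTAG00000038735) 1474 ± 1339 CPM. The 10 most abundant members ended with rank 9 (ENSBTAG00000010889) at 771.2 ± 883 CPM and rank 10 (ENSBTAG00000006295) at 691.2 ± 546 CPM. Ranks 1 and 2, 2 and 3, and 5 and 6 differed by more than 1 SD of either gene, and the other neighbours among these 10 lay within 1 SD of each other. These means include A57, A51 and A18, which stand apart. Rank 9 held 1040, 1588 and 2706 CPM in them and 52.7 to 673.9 in the other 6 libraries, where rank 11 held 535.3 to 685.2. Rank 4 held 12.6 to 28.9 CPM in the 3 and 2777 to 29243 in the 6. The order of ranks 3 and 4 and of ranks 9 to 13 thus depended on these 3 libraries, as did that of ranks 7 and 8.

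**Figure D1:**
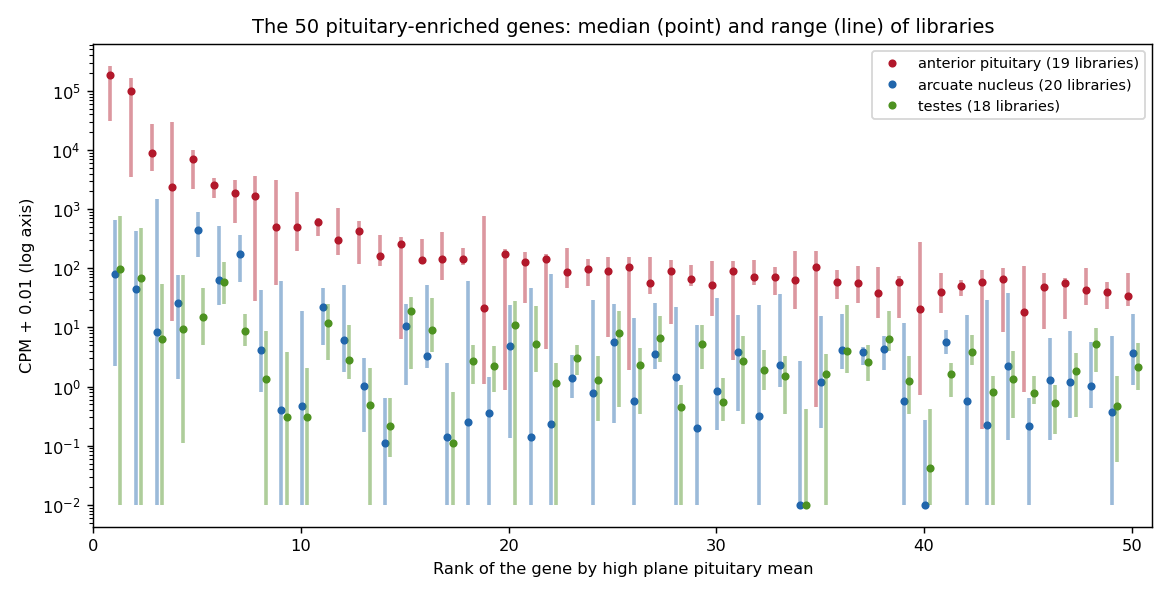
Median (point) and lowest to highest library (line) of CPM + 0.01 on a log axis for the 50 genes, ordered by their high plane pituitary mean, in 19 anterior pituitary, 20 arcuate nucleus and 18 testes libraries. The pituitary medians lie above those of both other tissues for all 50 genes, and the lines are long for ranks 4, 8, 19, 20, 35, 40 and 43 in the pituitary.

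Together the 50 genes took 30.5% ± 5.57 of the counts of a high plane pituitary library (SD, n = 9) and 28.7% ± 8.24 on the low plane (n = 10). The high plane libraries ran from 19.4% to 38.1% with a median of 30.8%, and the low plane libraries from 9.23% to 37.3% with a median of 30.1%, so the diets overlapped over nearly their whole range. In bulk samples such as these, fewer cells of a type and less RNA per cell cannot be told apart. Rank 1 alone held 65.5% of the members' reads on the high plane, ranks 1 and 2 held 88.9%, and ranks 1 to 10 held 98.6%. The remaining 40 genes shared 0.344% to 0.551% of the counts of a pituitary library over all 19. Low plane library A47 had the lowest share, 9.23%, with rank 1 at 3.14% of its counts.

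**Figure D2:**
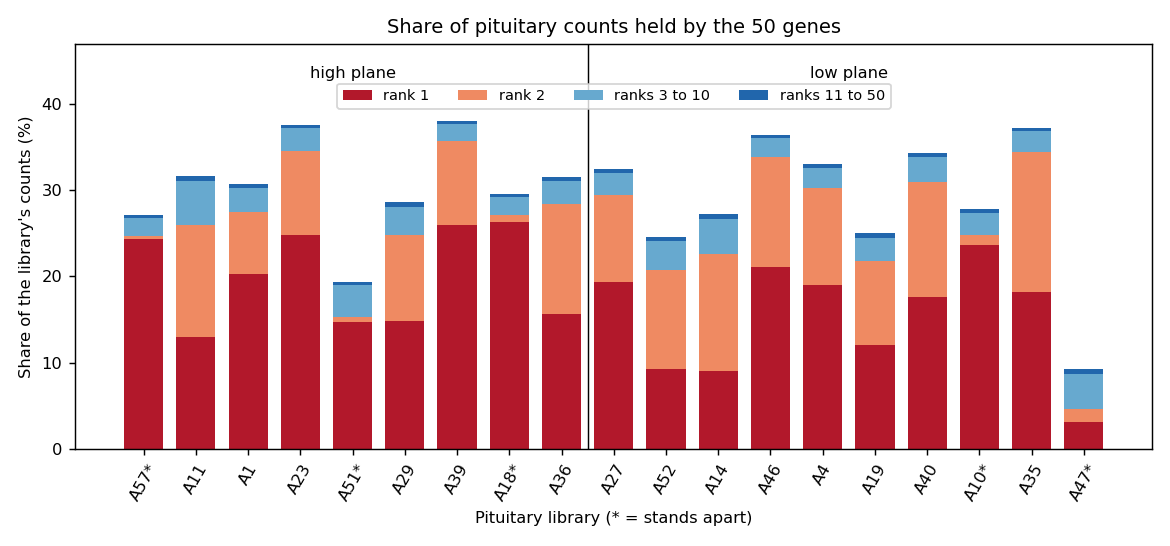
Share of each pituitary library's counts (%, bars from 0) on rank 1, rank 2, ranks 3 to 10 and ranks 11 to 50, for 9 high plane and 10 low plane libraries. The 5 libraries with an asterisk stand apart, and in them the rank 2 segment is 0.348% to 1.46% of counts, against 7.28% to 16.2% in the other 14.

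The low plane libraries had no part in the choice of the genes, so the enrichment could be tested there. All 50 genes were higher in the low plane pituitary than in the low plane arcuate nucleus at an adjusted p (edgeR quasi-likelihood test, FDR) below 0.05, while 23.5% of the 15808 genes tested were. All 50 were also higher than in the testes, against 25.1% of genes tested. The median log2 fold change over the members was 4.85 against the arcuate nucleus, in a range of 2.49 to 10.59. Against the testes it was 5.95, in a range of 2.26 to 10.83. Without the low plane libraries that stand apart in the 3 tissues, the medians were 4.72 and 5.75. Low plane arcuate library C8, described below, is not among these. Without C8 alone the median against the arcuate nucleus was 6.14, and all 50 genes stayed higher in the pituitary.

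Rank 1 was 9.48 ± 1.06 (SE) higher on the log2 scale in the pituitary than in the arcuate nucleus (FDR = 1.27e-08) and 10.07 ± 1.20 higher than in the testes (FDR = 3.76e-08). The smallest difference from the arcuate nucleus was that of rank 41, and the smallest from the testes that of rank 38. Over all 19 pituitary and 20 arcuate libraries, 33 of the 50 genes had every pituitary library above every arcuate one, against 3.3% of the 13893 genes with a pituitary mean of at least 1 CPM. Without the 5 pituitary libraries that stand apart it was 47 of 50, against 7.28%. The exceptions were ranks 9, 19 and 30. Against the testes the counts were 39 of 50 (background 5.68%) and, without the 5 libraries, 48 of 50 (background 11.8%), the exceptions then being ranks 19 and 38. The high plane libraries among these chose the members, so these 4 counts are a description.

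Among the 14 pituitary libraries that resemble each other, members ranged from steady to widely varying. They are not compared with other genes in this respect. Their coefficient of variation, the SD as a share of the mean, had a median of 21.5% and was under 20% for 22 of the 50 genes. Rank 39 varied least, with a highest library 1.26 times the lowest, at 58.4 to 73.8 CPM. It was over 50% for 7 genes. Rank 19 varied most, from 1.10 to 757.2 CPM. Its highest values were 757.2 CPM in high plane library A11, 383.8 in low plane library A14 and 295.7 in low plane library A52. Rank 4 was also high in these, at 29243, 12869 and 8355 CPM, against a median of 2864 CPM over the 14 libraries. Rank 40 ran from 0.717 CPM in high plane library A1 to 273.6 in low plane library A4, with high and low libraries in both diets.

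The 5 pituitary libraries that stand apart differed from the other 14 in some members and not in others. Rank 1 held 31375 to 263632 CPM in the 5 and 89754 to 259199 in the 14. Rank 2 held 3483, 5134 and 7668 CPM in the high plane libraries A57, A51 and A18 and 11461 and 14623 in the low plane libraries A10 and A47, while no library of the other 14 was below 72755. The ratio of rank 1 to rank 2 was accordingly 20.6 to 69.8 in 4 of the 5 and 2.15 in A47, against 0.66 to 2.78 in the 14.

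Rank 4 held 28.9, 20.7, 12.6, 77.6 and 32.3 CPM in A57, A51, A18, A10 and A47, and at least 1782 CPM in each of the other 14. Rank 8 held 28.2 to 112 CPM against at least 851.3, and rank 43, a scarcer member, 0.182 to 0.718 CPM against at least 44.3. In all, 17 of the 50 genes had the 5 libraries below every other pituitary library, close to the share of all genes that did (33.6% of 14411). The 5 lay above every other library for 7 of the 50 members, against 26.2% of all genes. Rank 9 was 1 of these, at 1040 to 3081 CPM in the 5 and 52.7 to 865 in the 14. By the first of these counts, such low values were about as frequent among the members as among all genes tested.

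By medians, 13 members were at least 4 times lower in the 5 libraries (20.5% of genes with a pituitary mean of at least 1 CPM were), 7 were at least 2 times higher (15.9% of genes) and 24 differed by less than 2 times (50.2% of genes). The medians of rank 6, 2401 and 2523 CPM, and of rank 18, 146.7 and 143.0 CPM, were nearly equal in the 5 and the 14. Of the 13, 12 had a median of at least 1 CPM in the 12 testes libraries that resemble each other. All 12 were also lower in the 6 testes libraries that stand apart, by 0.35 to 3.80 on the log2 scale, as were 99.9% of the 2713 genes picked in the same way and 12 of 26 other members that could be compared. Across the 38 members that could be compared, the log2 differences in pituitary and testes had a Pearson r of 0.78, and across 13127 genes r was 0.95. These are correlations across genes, which share libraries and are not independent replicates.

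**Figure D3:**
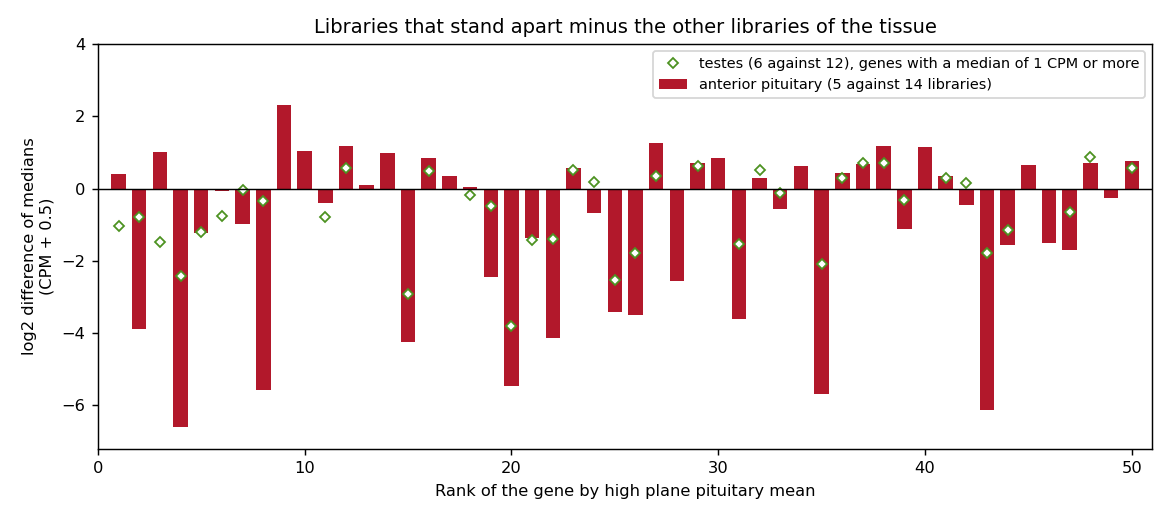
Difference of the median log2(CPM + 0.5) between the libraries that stand apart and the others, for the 50 genes in the pituitary (bars, 5 against 14 libraries) and, where the testes median is at least 1 CPM, in the testes (diamonds, 6 against 12). The longest bars, ranks 4 and 43, are below -6, and the diamonds of the genes with bars below -2 all lie below 0.

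Diet response was tested in the pituitary over all genes, with the high plane as the reference. Over the 19 libraries none of the 50 members passed an FDR of 0.05 in edgeR's quasi-likelihood test, against 0.562% of the 14411 genes tested. At an unadjusted p under 0.05 there were 4 (7.42% of genes), of which 3 were lower and 1 higher on the low plane. The high plane libraries of this test also chose the members, which favours lower values on the low plane a little. No direction of response is therefore read from these 4. DESeq2 called 1, rank 45, against 1.79% of genes, and the edgeR exact test called the same gene, against 0.965%. The median log2 fold change over the members was 0.06 and the median standard error 0.30. Rank 1 had a log2 fold change of -0.41 ± 0.33 (SE), rank 2 of 0.50 ± 0.63 and rank 3 of 0.01 ± 0.31. Doublings of ranks 2 and 4 were not detectable at this spread, since the standard error of rank 4 was 1.08.

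Without the 5 libraries that stand apart, 6 high plane and 8 low plane libraries remained, and 2 of the 50 members passed, against 5.72% of 14563 genes. This share is close to the background. The median standard error over the members was then 0.15.

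Rank 13 (ENSBTAG00000047599) was higher on the low plane. Its high plane libraries held 232 to 441 CPM with a median of 282, and its low plane libraries 387 to 572 CPM with a median of 443. A single high plane library, A11, lay in the range of the low plane libraries. Its log2 fold change was 0.59 ± 0.14 (SE, FDR = 0.02, edgeR), and 0.57 ± 0.21 (FDR = 0.422) with all 19 libraries, in which the high plane ran from 118 to 441 CPM and the low plane from 387 to 629.

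Rank 45 (ENSBTAG00000003865) had lower values on the low plane. Its 6 high plane libraries held 18.2 to 108.6 CPM with a median of 47.98, and its 8 low plane libraries 1.60 to 29.7 CPM with a median of 6.25. Only high plane library A36, at 18.2 CPM, and low plane library A19, at 29.7, lay in the range of the other diet. The log2 fold change was -2.45 ± 0.52 (SE, FDR = 0.0128, edgeR), and -2.15 ± 0.56 (FDR = 0.115) with all 19 libraries. The 5 libraries held 35.96, 15.8 and 29.1 CPM on the high plane and 0.784 and 28.4 CPM on the low plane. Rank 45 is a member only through its high plane values. Its high plane mean was 44.19 CPM, near the 41.58 of rank 50, and 36.14 without library A1, while its low plane mean was 11.14 CPM and a list chosen on the low plane libraries did not hold it. Its lower value on the low plane therefore rests on high plane values that the choice used, and its FDR is no independent test of a diet response.

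The other 8 of the 10 most abundant members after ranks 1 and 2 had log2 fold changes of -1.15 (rank 4, SE 0.57, FDR = 0.242) to 0.96 (rank 9, SE 0.42, FDR = 0.187) in the 14 libraries, none past the threshold in edgeR. Rank 1 had -0.29 ± 0.26 and rank 2 0.24 ± 0.16. Rank 5, at 5864 to 7138 CPM on the high plane and 6468 to 9983 CPM on the low plane, had 0.24 ± 0.09 (FDR = 0.126).

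**Figure D4:**
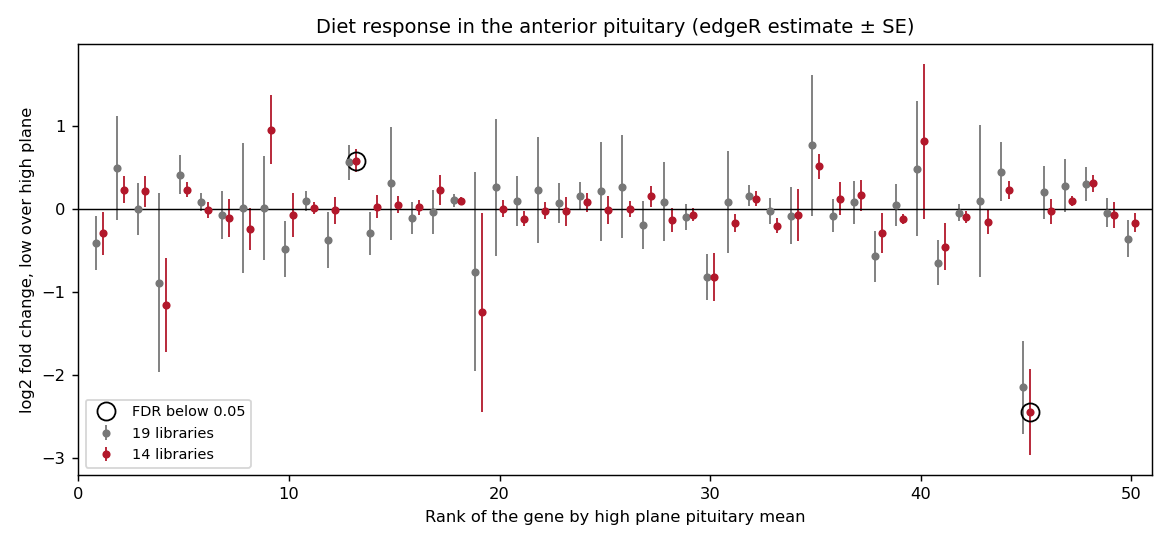
Log2 fold change of low over high plane (edgeR estimate, bars are standard errors) for the 50 genes in the pituitary with 19 and with 14 libraries, in order of abundance. Circles mark ranks 13 and 45, which have an FDR below 0.05 in the 14-library fit, and the grey bars of the 19-library fit are longer for most genes.

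Traces of the members were present in the arcuate nucleus. The 50 genes took 0.111% ± 0.0259 of the counts of a high plane arcuate library (SD, n = 10) and 0.16% ± 0.119 on the low plane (n = 10). Without low plane library C8 the low plane mean was 0.13%. The high plane ran from 0.0729% to 0.148%, and the low plane from 0.0617% to 0.431%. The testes held less, 0.0514% ± 0.0437 on the high plane (n = 10) and 0.0555% ± 0.0345 on the low plane (n = 8). Of the 50 members, 28 had at least 1 read in every arcuate library and 21 had a median under 1 CPM. The count of 28 depends on the shallow high plane library C22. With 898979 counts it had no read of 19 members, while each other arcuate library lacked at most 6.

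Set against the pituitary, the arcuate mean on the low plane was 0.0506% to 19.3% of the pituitary mean, with a median of 4.14% over the members (1.48% without C8). The highest ratios were those of rank 41 (19.3%), rank 50 (19.0%), rank 38 (12.7%), rank 7 (10.4%) and rank 27 (10.3%). The lowest were those of rank 40 (0.0506%), rank 14 (0.121%), rank 2 (0.158%), rank 1 (0.161%) and rank 17 (0.263%). By median, ranks 5 and 7 were the most abundant members in the arcuate nucleus, with low plane values of 152.7 to 884.3 CPM (median 453.6) and 57.9 to 370.1 CPM (median 183.8). By low plane mean, rank 1 at 245.2 CPM lay between rank 5 at 510.7 and rank 7 at 190.1. The order of the ratios depended on C8. Without it, the lowest were those of rank 40 (0.0562%), rank 9 (0.0718%, from 0.773%), rank 34 (0.0969%), rank 17 (0.119%) and rank 14 (0.13%), and rank 3 was at 0.13%, from 1.4%. Ranks 2 and 1 were then at 0.171% and 0.176%. Of the 5 highest, ranks 41, 50, 38 and 7 stayed highest without C8, at 18.5%, 15.6%, 12.2% and 9.29%, and rank 27 was at 7.34%.

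Ranks 1 and 2 were high together in some arcuate libraries. Rank 1 ran from 2.23 CPM to 643.5 with a median of 79.5, and rank 2 from 0 to 424.7 with a median of 45.1. Low plane libraries C43, C24 and C55 were highest in both, at 635.4, 562.3 and 643.5 CPM for rank 1 and 424.7, 336.5 and 320.4 CPM for rank 2. In the 18 arcuate libraries with both at 10 CPM or more, rank 1 was 0.793 to 2.29 times rank 2. This limit leaves out the shallow C22, without a read of rank 2, and high plane library C37, in which rank 1 held 142.8 CPM and rank 2 5.12, a ratio of 27.9. In the testes, 10 libraries had both at that level, with ratios of 0.861 to 2.21, and high plane testes library B49 held 762.6 and 483.4 CPM. The testes libraries under the limit included A48 with 26.1 CPM of rank 1 and 0.492 of rank 2, a ratio of 53.1, B7 with 86.0 and 1.18 CPM, a ratio of 72.9, and B26 with a ratio of 4.86. The 14 pituitary libraries had ratios of 0.66 to 2.78. The source of these traces was not tested, and tissue taken with the sample, reads assigned to the wrong library and low expression in the cells cannot be told apart with these files.

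Low plane arcuate library C8 differed from the rest. Rank 3 held 1465 CPM there, from 22163 reads, while the next highest arcuate library, C43, held 47.1 and the median of the other 19 was 7.5. Ranks 1 and 2 were not raised in C8, at 37.5 and 44.2 CPM. Rank 1 was therefore 0.0256 times rank 3 in C8, against 6.51 to 32.8 times in the other arcuate libraries with ranks 1 and 2 at 10 CPM or more, and 7.99 to 58.1 times in the 14 pituitary libraries.

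Many members went with rank 3. C8 was the highest arcuate library for 35 of the 50 members, against 8.55% of the 18317 genes with at least 10 reads over the other 19 libraries. It was at least 2 times every other for 29 of the 50 members, against 1.25% of these genes. At least 10 times every other held for 12 members, against 0.169% of these genes. Rank 22 held 78.7 CPM in C8 and at most 0.949 in the others, rank 18 held 60.6 and at most 1.70, and rank 21 held 47.1 and at most 1.24. Rank 9 held 60.1 and at most 2.99, and rank 6 held 526.8 and at most 124.6.

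Levels in C8 came near those of the pituitary for some of these genes. C8 held at least 20% of the low plane pituitary mean for 21 members, with 71.1% for rank 30, 64.3% for rank 22 and 59.1% for rank 44. It held under 1% for 6 members, ranks 1 and 2 among them, at 0.0246% and 0.0437%. Rank 40 had no read in C8.

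**Figure D5:**
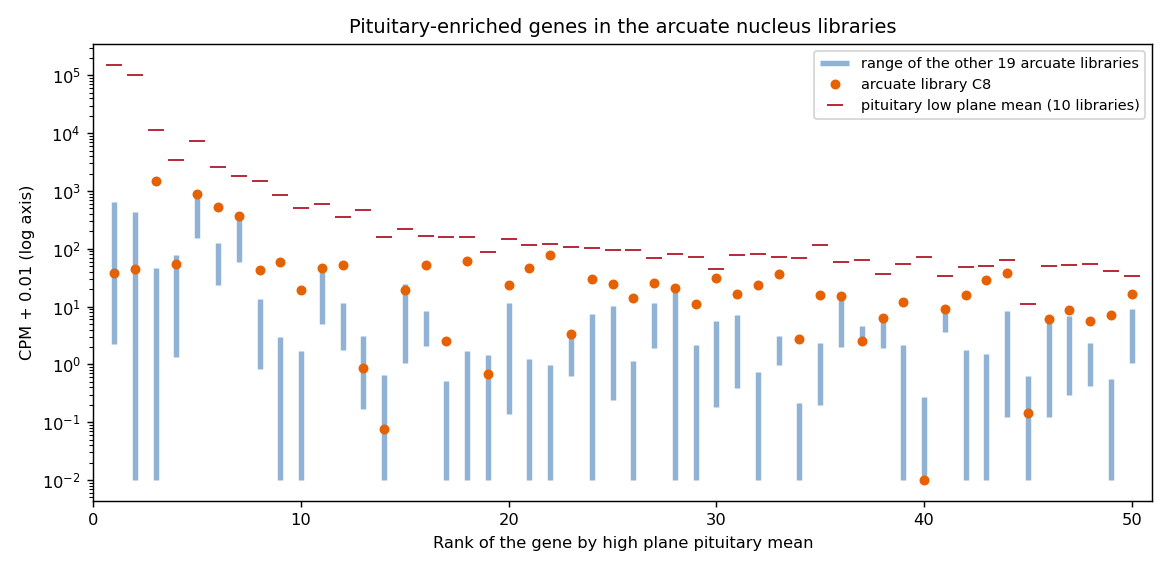
CPM + 0.01 on a log axis of the 50 genes in arcuate library C8 (points) and in the other 19 arcuate libraries (bars, lowest to highest), with the low plane pituitary mean (dashes). C8 lies above the bar for 35 genes and at 37.5 and 44.2 CPM for ranks 1 and 2, within their bars.

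By its median, the diet response of the members in the arcuate nucleus rested largely on C8, while that of ranks 1 and 2 did not. Of the 32 members that passed the filter on low counts, none passed an FDR of 0.05 in edgeR (background 0% of 14757 genes, also 0 members with DESeq2), and 8 had an unadjusted p under 0.05 (9.92% of genes), all higher on the low plane. The median log2 fold change over the 32 was 0.60, and 0.05 without C8, where 2 had an unadjusted p under 0.05 (10.8% of genes). Rank 3 had a log2 fold change of 4.202 ± 1.09 (SE, FDR = 0.477) with C8 and of 0.96 ± 0.50 (FDR = 0.448) without it. Ranks 1 and 2 had 1.05 ± 0.67 and 0.96 ± 0.67 with C8. Without it they had 1.17 ± 0.66 (FDR = 0.456) and 1.07 ± 0.68 (FDR = 0.485) in edgeR.

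The diet response in the pituitary was then compared with that in the arcuate nucleus. None of the 50 members passed an FDR of 0.05 for the difference in edgeR (background 0.0581% of 15503 genes), and 18 had an unadjusted p under 0.05 (14.5% of genes), all with the lower low-over-high change in the pituitary. In the arcuate nucleus alone, 32 of the 50 had passed the filter on low counts. The others entered this test through the pituitary, where the rule made them high. Ranks 9, 10, 18, 21, 22, 32, 34, 42, 43 and 45 are of this kind and had an unadjusted p under 0.05. No difference between the tissues is read from their values. DESeq2 called 1 member, rank 18, against 0.374% of genes. Rank 18 held 60.6 CPM in C8 and at most 1.70 in the other arcuate libraries. Its edgeR difference was -3.77 ± 1.14 (SE) with C8 and 0.20 ± 0.53 (p = 0.708) without it. The median difference over all 50 members, those that entered through the pituitary included, was -1.06 on the log2 scale. It was -0.04 without C8, where 6 had an unadjusted p under 0.05 (15.2% of genes), rank 45 among them. The counts of 18 and 6 and these medians include genes of that kind. No difference between the tissues is read from them either.

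In the testes 5 of the 40 members that passed the filter were higher on the low plane at an FDR below 0.05 in edgeR. These were ranks 23, 29, 37, 48 and 50, against 4.75% of 15310 genes higher at that FDR (6.9% in either direction). Their levels were low. Rank 48 held 1.78 to 5.62 CPM on the high plane and 3.45 to 9.71 on the low plane, with medians of 3.02 and 7.65 and a log2 fold change of 0.98 ± 0.25 (SE, FDR = 0.029, edgeR). The 6 testes libraries that stand apart, 5 of them low plane, had higher medians of all 5 genes than the other 12, by 0.53 to 0.86 on the log2 scale. Without these 6 libraries none of 45 members passed in edgeR (background 0% of 15935 genes), 8 had an unadjusted p under 0.05 (16% of genes) and rank 48 had 0.67 ± 0.34 (FDR = 0.344), with 3 low plane libraries left. Diet and the state of these libraries cannot be told apart for these genes in the testes.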

How the data were processed

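Single-end mRNA libraries of 3 tissues were sequenced from bull calves on 2 planes of nutrition. The authors deposited raw counts of reads per Ensembl gene, whole numbers without normalization. The submitters' processing notes name CASAVA 1.4, STAR, HTSeq and edgeR. The genome build and annotation release are not given in the sources used here. The authors left out 3 libraries with few reads. Libraries were grouped by their labels. The column header of the library labelled A48 reads B48, and it was kept as testes, as its label states.

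CPM used the library's total count. Tests were run in R 4.3.3 with edgeR 4.0.16 on all genes (default filter, TMM, quasi-likelihood test, Benjamini-Hochberg FDR, threshold 0.05). DESeq2 1.42.0 and limma 3.58.1 served as alternatives, and tables were made in Python 3.11.15. The code was tested on simulated data. A library stood apart when its median Spearman correlation with the others of its tissue was under 0.9. The members, gene lists and these limits were chosen with earlier results of these data known. Genes were named by a rule, which took the 10 most abundant members, the 5 highest and 5 lowest arcuate ratios and those nearest to the thresholds. The rule also took members with a diet response in the 19 pituitary libraries. There were none in the quasi-likelihood test without a covariate. All others were named after their values were seen, ranks 13 and 45 among them. The planned lists of pituitary hormones, receptors, transcription factors, granule proteins and cell type markers, and a motif search, could not be used without gene names or sequences. Each library of a tissue came from a separate calf.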

Additional observations from a re-analysis of the deposited data

Results flagged for a closer look

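In 54 groups of libraries searched, 14 values lay far from the rest of their group by Dixon's criterion. Chance gives about 1 in 20 for independent groups of normally distributed values. The groups here share libraries, so no excess over chance is read from the 14. The summed share of the 50 genes was low in low plane pituitary library A47, at 9.227% with the next library at 24.57%. It was high in high plane testes library B49, at 0.1676% with the next at 0.06532%. In the low plane arcuate nucleus, library C8 gave 5 of the 14. It held 1465 CPM of rank 3 (next 47.07), 526.8 of rank 6 (next 88.37), 42.83 of rank 8 (next 13.31), 60.09 of rank 9 (next 2.993) and 19.24 of rank 10 (next 1.72). What sets C8 apart was not tested.

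In the pituitary, high plane library A51 held 27948 CPM of rank 3 (next 13701) and 1966 CPM of rank 10 (next 951.2). Low plane library A47 held 27701 CPM of rank 3 (next 16322) and 3081 CPM of rank 9 (next 1341). Both are among the 5 libraries that stand apart. High plane library A11 held 29243 CPM of rank 4 (next 8762), and high plane library A1 held 108.6 CPM of rank 45 (next 50.92). Low plane arcuate library C55 held 0.623 CPM of rank 45, with the next at 0.3185, which is a difference of a few reads.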

How the results depend on the processing

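Counts of members with a diet response in the pituitary were low under every setting tried. From 0 with 19 libraries, the count was 1 with the edgeR exact test (0.965% of all genes), 1 with DESeq2 (1.79%), 1 in a single fit over all 57 libraries (1.06%), 3 with limma-voom and quality weights (7.58%), and 3 with a library score as covariate (an average over 200 genes chosen without this tissue, none of them a member), against 9% of all genes. Without the 5 libraries that stand apart, an alternative chosen after seeing the data as were all others without such libraries or without C8, it was 2 (5.72%), with DESeq2 4 (10.0%) and without TMM 2 (2.55%). Leaving out each of the 19 libraries in turn gave 0 each time, and each of the 14 gave 2 to 3. Rank 45 was lower and rank 13 higher on the low plane in every alternative that tested them. These alternatives share most of their libraries, and rank 45 is a member only through its high plane values. The shared direction is thus no independent test of a diet response. With the library score as covariate, the 3 members called were rank 45, lower, and ranks 5 and 35, both higher. Their log2 fold changes in edgeR were 0.32 ± 0.10 (SE, FDR = 0.0402) for rank 5 and 0.49 ± 0.13 (FDR = 0.0265) for rank 35. Rank 13 did not pass in that fit (FDR = 0.0655). The difference between pituitary and arcuate nucleus gave 1 member with DESeq2 (0.374%), rank 18, which entered that test through the pituitary. The testes count went from 5 to 0 without the libraries that stand apart. The higher level in the low plane pituitary held for 50 members under all alternatives. Without rank 1, in counts and totals, the members' share of pituitary counts was 12.98% on the high plane and 15.996% on the low plane, so the order of the diets turned, within the spread between libraries. A ratio of 4 in place of 8 kept 26 of the members and the other settings of the rule 34 to 50. No paired analysis was possible because the labels give each library its own code and do not tie libraries of different groups to each other. Depth limits the traces most in arcuate library C22, in which 19 members had no read.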
